A study of Mus musculus with 12 samples.

Results

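The cornified envelope genes encode the proteins and enzymes that build the cross-linked shell of the dead outermost cells of the skin. They were taken as all genes whose symbol begins with Lce or Sprr, together with Lor, Ivl, Flg, Flg2, Hrnr, Rptn, Crct1, Kprp, Cdsn, Casp14, Tgm1, Tgm3 and Tgm5. This gave 49 of the 32285 genes counted. Of these, 21 were late cornified envelope (Lce) genes, namely 14 Lce1, 6 Lce3 and Lce6a. Another 15 were small proline-rich (Sprr) genes, namely Sprr1a and Sprr1b, 11 Sprr2 genes, Sprr3 and Sprr4. The other 13 were named singly. On GRCm38, 44 of the 49 lay within 1 stretch of chromosome 3, at chr3:92080271-93399442 from Lor to Rptn, a span of 1.32 Mb known as the epidermal differentiation complex. The others were Tgm3 and Tgm5 on chromosome 2, Casp14 on chromosome 10, Tgm1 on chromosome 14 and Cdsn on chromosome 17.

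Keratinocytes are born in the basal layer, leave it as spinous cells, and end as flattened cornified cells. On the way, envelope proteins are laid down under the membrane and joined by transglutaminases (Tgm1, Tgm3 and Tgm5). Involucrin (Ivl) and Sprr proteins are known as early parts of that scaffold, loricrin (Lor) as its main bulk, and Lce proteins as late additions. Filaggrin (Flg) and its relatives Flg2, Hrnr and Rptn, which carry an S100-like domain, bind keratin filaments or the envelope, Casp14 is a protease of filaggrin breakdown, and corneodesmosin (Cdsn) holds cornified cells together.

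The cells came from the glabrous hind paw epidermis of 12 wild-type C57BL/6J mice, 1 library per mouse, with 3 males and 3 females on each diet. Mice were 6 to 8 weeks old when assigned to either a regular diet with 11% fat (RD) or, as the high-fat group (HFD), to EnvigoTD88137 with 42% fat. After 10 weeks, at an age of 16 to 18 weeks and without any drug, the epidermis was peeled off and dissociated, and its cells were sequenced in droplets with a 10x Genomics 3′ kit. That assay counts transcripts by unique molecular identifiers (UMIs). Cell Ranger 6.1.0 had counted the male and version 7.2.0 the female libraries, so that sex and counting software cannot be told apart, and levels are compared here within a sex.

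Each mouse gave 7370 to 16254 barcodes and 134449247 to 194673581 UMIs, of which 1288902 to 4151934 were from the 49 genes. After filters, 6226 to 15193 cells per mouse remained, with a median of 6577 to 15047.5 UMIs per cell. That median was 10161, 6577 and 10937 UMIs in Male RD and 15047.5, 11615 and 10933 UMIs in Male HFD mice. It was 11689, 8925 and 10669 UMIs in Female RD and 12002, 12344 and 11498.5 UMIs in Female HFD mice. Xist and Ddx3y matched the labelled sex in all 12 libraries. Any pair of libraries shared 15 to 70 barcode sequences, with a median of 38 over the 66 pairs. Median mitochondrial shares, taken over all barcodes before filters, were 3.09%, 3.15% and 3.40% in Male RD and 3.62%, 3.68% and 3.48% in Male HFD mice. The male diet groups thus did not overlap in them. In females they were 1.98%, 2.02% and 1.98% on RD and 2.13%, 2.66% and 2.02% on HFD.

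The promoters of 6 genes are printed because they stand for the groups that follow below. Sprr1b and Ivl stand for the early members, and Lor, Flg and Lce3f for those further on. Lce1b stands for the Lce1 genes, whose share of UMIs sets an order of cells below and which are not placed by it. Each line is the 200 bases before the transcription start on the gene's own strand, 5′ to 3′, from RefSeq (GRCm38.p6). Capitals mark the letters TGANTCA, a loose form of the core site of AP-1 factors (Fos and Jun proteins), searched on both strands. The usual core has C or G in place of N, as before Ivl and Lor, whereas the stretches before Sprr1b and Flg have A there. Sprr1b lies at chr3:92438780-92438979 (minus strand), Ivl at chr3:92573736-92573935 (minus), Lor at chr3:92083143-92083342 (minus), Flg at chr3:93273346-93273545 (plus), Lce3f at chr3:92992017-92992216 (plus) and Lce1b at chr3:92656927-92657126 (minus).
Sprr1b: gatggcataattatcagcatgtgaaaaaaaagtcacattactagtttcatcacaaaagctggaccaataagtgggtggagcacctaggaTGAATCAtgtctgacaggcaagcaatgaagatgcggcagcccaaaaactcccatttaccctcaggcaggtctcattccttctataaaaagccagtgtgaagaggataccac
Ivl: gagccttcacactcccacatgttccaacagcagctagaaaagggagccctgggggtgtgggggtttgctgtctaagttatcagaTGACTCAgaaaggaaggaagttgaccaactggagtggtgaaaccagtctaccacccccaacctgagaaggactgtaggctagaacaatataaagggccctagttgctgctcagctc
Lor: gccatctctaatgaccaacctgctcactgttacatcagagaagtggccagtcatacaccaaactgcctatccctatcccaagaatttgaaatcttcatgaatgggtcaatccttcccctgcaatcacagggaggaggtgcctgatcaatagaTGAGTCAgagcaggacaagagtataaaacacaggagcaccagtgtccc
Flg: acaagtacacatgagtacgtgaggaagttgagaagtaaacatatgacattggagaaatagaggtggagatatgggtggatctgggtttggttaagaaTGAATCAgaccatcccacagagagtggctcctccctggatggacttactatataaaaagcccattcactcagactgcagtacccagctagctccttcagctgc
Lce3f: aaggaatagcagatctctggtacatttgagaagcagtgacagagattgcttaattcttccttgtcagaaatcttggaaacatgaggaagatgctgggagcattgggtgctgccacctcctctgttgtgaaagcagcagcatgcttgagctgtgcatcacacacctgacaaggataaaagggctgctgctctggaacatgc
Lce1b: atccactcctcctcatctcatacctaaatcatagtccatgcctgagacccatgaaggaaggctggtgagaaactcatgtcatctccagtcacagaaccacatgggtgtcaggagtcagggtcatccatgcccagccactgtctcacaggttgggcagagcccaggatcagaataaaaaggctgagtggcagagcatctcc

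These letters were found within 250 bases before the start in 14 of the 45 members with a sequence in the table (31.1%), against 2113 of all 27025 genes (7.82%). They stood before 9 of 14 Sprr genes (64.3%) and 5 of 11 genes outside the Lce and Sprr families (Lor, Ivl, Flg, Flg2 and Rptn). None of 20 Lce genes had them in this window. Their first base lay 48 bases before the start in Lor, 111 in Sprr1b, 116 in Ivl and 103 in Flg. A match describes letters only. In the Sprr2 genes that had a match, it lay 193 to 198 bases before the start, and Sprr2k had another at 182. Many Sprr2 and Lce1 genes are close copies of each other, so these counts are not of independent promoters. Kprp, Crct1, Lce1f and Sprr2j-ps had no entry.

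To place the genes along differentiation, cells were clustered in each sex without the 49 genes and classes were named from other markers. The class called terminally differentiated rested on 13 such markers in males (4608 cells in 1 cluster), among them Krt78, Krt80, Asprv1, Klk7, Cnfn and Abca12, and on 12 and 13 markers in the 2 female clusters (1270 and 1252 cells). In this class the envelope genes together made up 202448 ± 13150 CPM (UMIs scaled to a common total per class and mouse, mean ± SD, n = 6 mice) in males and 208758 ± 20534 in females, which was 20.2% and 20.9% of all UMIs. In suprabasal (spinous) cells they made up 2999 ± 273 and 2894 ± 350 CPM, and in basal cells 1230 ± 192 and 437 ± 53.3 CPM. The finer clustering below drew the class wider, and its share of envelope UMIs was then 9.88% in males and 11.4% in females. No mouse's terminally differentiated class was below 180165 CPM, and no suprabasal class was above 3456 CPM. Since clusters are cut from other genes of the same cells, differences between classes are a description with no test.

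Free RNA from broken cells can give UMIs to every droplet. Background was estimated here from cells that should lack these genes. No empty droplets were used and doublets were kept, so free RNA and doublets cannot be told apart in it. Langerhans cells held 2163 CPM of envelope genes in males and 722 CPM in females, T cells 2867 and 466 CPM. A Lor UMI was present in 81.5% of male and 28.5% of female Langerhans-like cells, at a mean of 441 and 77.1 CPM and median depths of 4660 and 6724 UMIs. Basal cells, at 219 and 41.4 CPM of Lor, were no higher than that. For Lor, Flg, Flg2, Kprp, Cdsn, Lce6a and all Lce1 genes summed (366 and 66.2 CPM), the suprabasal level was also no higher than in Langerhans cells in either sex. Free RNA weighs more in the CPM of shallow cells such as these Langerhans cells. Low expression in suprabasal cells therefore cannot be told apart from background here.

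Sprr1b and Sprr1a, early cross-linked scaffold proteins, were among the members that stood out of this background below the last stage. Sprr1b was at 39.9 ± 9.31 CPM in basal, 1172 ± 169 in suprabasal and 2113 ± 351 in terminally differentiated cells of males. In females the 3 levels were 30.6 ± 6.66, 1831 ± 241 and 2952 ± 265 CPM. A Sprr1b UMI was found in 75.1% of male and 95.7% of female suprabasal cells, against 26.8% and 18.0% of Langerhans cells. Sprr1a was at 48.7, 207 and 666 CPM in males and at 10.1, 424 and 720 CPM in females across the same 3 classes. The suprabasal class also held an early Il34-led cluster in males (15629 cells) that had no name in females (15294 cells), so its levels are not compared between the sexes.

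The enzymes did not share 1 pattern. Tgm1, the membrane-bound transglutaminase, was at 67.4 ± 11.7 CPM in suprabasal and 195 ± 31.9 CPM in terminally differentiated cells of males, and at 83.1 ± 5.84 and 250 ± 27.9 CPM in females, with 24.6 and 8.38 CPM in Langerhans cells of the 2 sexes. Casp14 behaved likewise, with 59.1 ± 5.25 and 183 ± 24.5 CPM in males and 47.3 ± 6.51 and 193 ± 31.2 CPM in females, and with 18.4 and 4.69 CPM in Langerhans cells. Tgm3 ran the other way: it was at 265 ± 43.1 CPM in basal, 286 ± 18.0 in suprabasal and only 92.1 ± 10.5 in terminally differentiated cells of males, and at 240 ± 35.4, 218 ± 30.7 and 76.4 ± 17.4 CPM in females. Langerhans cells held 103 and 48.7 CPM of Tgm3, and a Tgm3 UMI was found in 17.5% and 13.1% of them, against 69.8% and 73.1% of basal cells, which were deeper (median 7375 and 9143 UMIs). Tgm5 stayed low and reached 24.7 ± 5.42 and 19.1 ± 3.37 CPM in the last class.

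Within the terminally differentiated class, Lor had the highest level with 38495 ± 4565 CPM (mean ± SD over 12 mice), followed by Crct1 (19299 ± 4367), a cysteine-rich gene of the complex, and Flg (16719 ± 4287). These 3' counts are per transcript and were not scaled by length. The Lce1 genes ranged from 1559 CPM (Lce1k) to 13331 CPM (Lce1b), with Lce1a1 at 12623 and Lce1l at 12536 CPM. Hrnr was at 8883, Sprr1b at 2533, Kprp at 2425, Cdsn at 1717, Lce3c at 1629, Lce6a at 740 and Lce3f at 703 CPM. Sprr2b (485), Flg2 (426), Sprr2d (352), Sprr2h (297) and Rptn (187) lay lower, and Ivl at 86.8 CPM lower still. Sprr4 and Sprr3 averaged 0.496 and 0.251 CPM, and Sprr2a1 and Sprr2a2 had less. The order pools the sexes and can differ within one: Lce1l was at 8165 ± 895 CPM in males and 16908 ± 1529 CPM in females, and Lce1b at 11630 ± 1063 and 15032 ± 1559 CPM. Many Lce1 and Sprr2 genes are close copies of each other, so the split of reads among them is uncertain.

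A finer clustering, again without the 49 genes, split terminally differentiated cells further. In males 4 clusters carried the name, given here in rising order of their summed envelope CPM, to which Lce1 adds. One, led by Rbp2 (4433 cells), held 4681 ± 414 CPM of envelope genes, of which Sprr1b made up 2238 ± 222 CPM. The next, led by Slc6a19 (2482 cells), held 22118 ± 2890 CPM, with Sprr1b at 3358 ± 433 CPM, Ivl at 172 ± 20.2 CPM and Tgm5 at 40.6 ± 6.50 CPM, the highest of any male cluster for these 3 genes, and with Lor at 4756 ± 1028 CPM.

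The next male cluster had Il1f6 and Lce3e among its leading genes (954 cells) and held 218444 ± 17353 CPM of envelope genes. It was the highest male cluster for Flg (43348 ± 4803 CPM), Hrnr (22374 ± 2097), Cdsn (5361 ± 311), Lce3c (4433 ± 612), Lce3f (2470 ± 412), Lce3e (2176 ± 416), Rptn (521 ± 218), Casp14 (327 ± 50.4) and Tgm1 (323 ± 43.7). Its Lce1 genes summed to 20987 ± 4500 CPM and Tgm3 was at 13.4 ± 3.01 CPM. The last, led by Lce1e (1737 cells), held 427905 ± 85764 CPM of envelope genes, of which Lce1 made up 259504 ± 57494 CPM. Crct1 at 40792 ± 6350 CPM, Kprp at 4779 ± 985 CPM and Lce6a at 1633 ± 439 CPM were highest there, while Lor at 68259 ± 14951 CPM was within the spread of the cluster before it (66136 ± 9988). Krt10, the spinous keratin, was at 51314 CPM in the Slc6a19-led and 6459 CPM in the last cluster.

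Female cells gave 2 such clusters. One, led by Dnase1l3 (2987 cells), held 14138 ± 2203 CPM of envelope genes, with Sprr1b at 3970 ± 374 CPM, Ivl at 69.0 ± 8.61 CPM and Lor at 3160 ± 748 CPM. The other, led by Lce1a1 (1290 cells), held 407763 ± 27098 CPM, with Lce1 at 253250 ± 15441, Lor at 72398 ± 7686, Crct1 at 29026 ± 1503, Flg at 22851 ± 3508 and Cdsn at 2506 ± 311 CPM. The Cdsn-rich step seen as a cluster in males was not a cluster of its own in females. Leading genes are named among all genes, so members appear among them although they took no part in the clustering.

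To follow the order inside the class, the terminally differentiated cells of each mouse were ranked by the Lce1 share of their UMIs and cut into 5 equal steps, about 154 cells per male and 84 per female mouse. Lce1 sets the order and is no result here. A sum over all envelope genes includes Lce1, so its course over the steps is largely fixed by the order and is not given. Where Lce1 takes so many UMIs, the CPM of every other gene is pressed down, and peaks were therefore also sought with UMIs outside Lce1 as the total.

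Sprr1b, Ivl, Tgm5 and Tgm3 had their highest level in the steps with the least Lce1, and their means were lowest in the last step. Sprr1b ran at 3233, 3369, 2610, 629 and 259 CPM over the steps of males and at 4759, 5061, 3642, 517 and 101 CPM in females. Ivl ran at 167, 207, 148, 19.7 and 1.08 CPM in males and at 102, 112, 61.9, 5.13 and 0.531 CPM in females. Sprr1b was highest in step 1 or 2 in 12 of 12 mice and Ivl in 11 of 12. Tgm5 was highest in step 1 in 8 mice and in step 2 in 4, and Tgm3 in step 1 in 12 of 12. Not all early scaffold genes were alike. Sprr1a was highest in step 2 in 5 mice and in step 3 in 7, and was at 120 CPM in males and 21.6 CPM in females in step 5. Sprr2b was highest in step 3 in 5 mice and in step 4 in 6, and Sprr2d in step 4 in 4 and in step 5 in 6.

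Another group had its highest level in the middle. Tgm1 was highest in step 3 in 12 of 12 mice, at 283 CPM in males and 441 CPM in females, and was at 27.8 and 32.9 CPM in step 5. Casp14 was highest in step 3 in 10 of 12 mice. With UMIs outside Lce1 as the total it was so in 4, with step 4 highest in 5 and step 5 in 3. Cdsn ran at 483, 946, 2870, 4192 and 1514 CPM in males and at 390, 649, 3254, 2389 and 1563 CPM in females, with its highest level in step 3 in 6 mice and in step 4 in 6. Lce3f ran at 185, 352, 1394, 2028 and 955 CPM in males and at 89.3, 251, 1138, 713 and 404 CPM in females, highest in step 3 in 7 mice and in step 4 in 5. Rptn divided in the same way as Cdsn.

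A further group had high levels in the last steps. Lor ran at 6332, 10208, 33252, 70460 and 85389 CPM in males and at 4864, 7363, 42200, 63959 and 90477 CPM in females, and step 5 was the highest in 11 of 12 mice. Kprp, a proline-rich envelope protein, and Lce6a were highest in step 5 in 12 of 12 mice, reaching 6167 and 2743 CPM in males. Flg was at 4625 CPM in step 1, 22443 CPM in step 3, 36912 CPM in step 4 and 36929 CPM in step 5 of males, and was highest in step 3 in 1 mouse, in step 4 in 6 and in step 5 in 5. With UMIs outside Lce1 as the total, Flg, Crct1, Lor and Sprr2d were highest in step 5 in 12 of 12 mice, whereas Cdsn was so in 2, Casp14 in 3 and Lce3f in none. Hrnr was so in 9. The Lce3 genes differed among themselves: Lce3c was highest in step 5 in 9 mice, Lce3d in 5 and Lce3e in 1, and Lce3a and Lce3b in none.

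**Figure D1:**
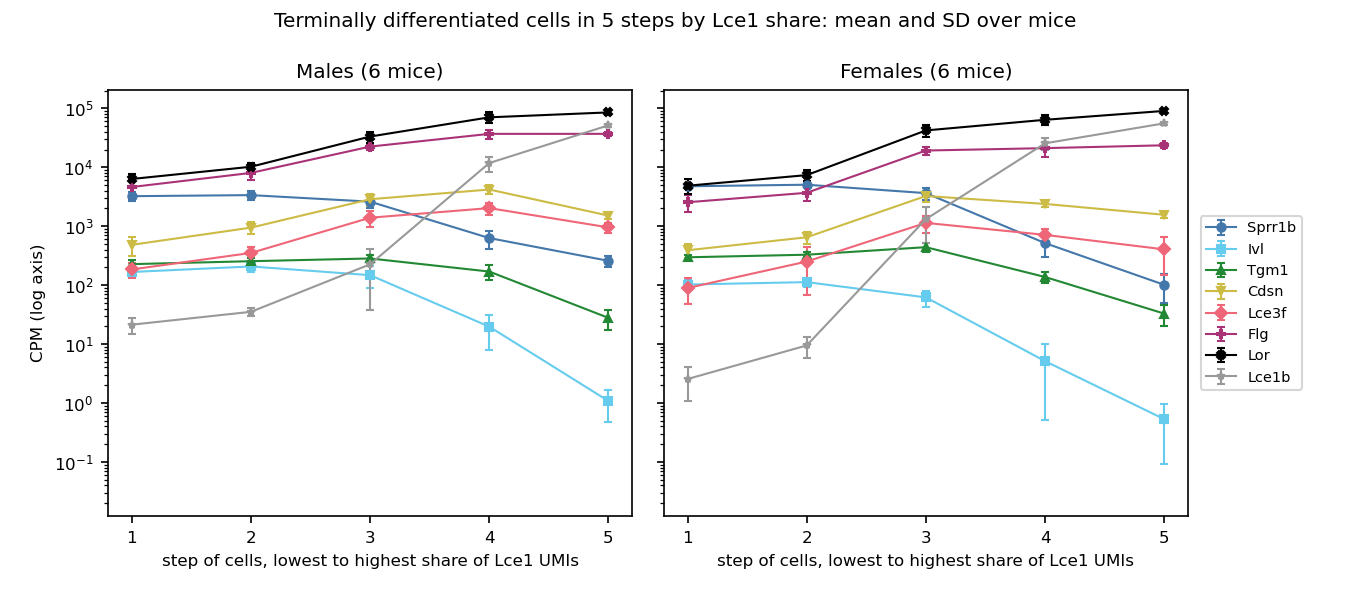
Level (CPM, log axis, mean and SD over 6 mice of a sex) of 8 envelope genes over the 5 steps of terminally differentiated cells ranked by their Lce1 share, in males and females. Lower error bars are cut short where the SD is close to or above the mean. Sprr1b and Ivl are highest in step 2, Tgm1 in step 3, Cdsn and Lce3f in step 3 (females) or 4 (males), and Lor in step 5.

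The onset of each gene was then read along a differentiation axis that used keratins and other markers but none of the 49 genes. The keratinocytes of each mouse, without migratory cells, were cut into 20 bins of equal number. The onset of a gene was the first bin from which it stayed at 10% or more of its highest level, in genes with at least 100 UMIs per mouse. A gene under 10% of its highest level in the last bin of a mouse had no onset in that mouse. Tgm3 was on from bin 1 in all 12 mice. Sprr1b had its onset at bin 10 in males (median, range 9 to 11) and at bin 13 in females (11 to 15), and Casp14 at bin 10 (9 to 11) and 11.5 (10 to 13). Tgm1 followed at 11.5 in males and 15.5 in females, Ivl at 16 and 15, Tgm5 at 13.5 and 17.5, and Sprr2b at 16.5 and 19.5.

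Onsets near the top of the axis included those of Cdsn (median bin 19 in both sexes), Rptn (19 and 19.5), Lce3e (19 and 19.5) and Lce3f (19 and 20). Hrnr had its onset at bin 19 in 6 of 6 males, and in females at bins 13, 14 and 13 on RD and 19, 19 and 20 on HFD. With 25% as the threshold it was at bin 20 in 6 of 6 females, and without doublets at bins 16 to 20. Over the genes with an onset in all 6 mice of a sex, the median was bin 12.25 in males (30 genes) and 13 in females (40 genes). The bins of the 2 sexes hold different shares of cell classes and are not compared. The order of these onsets depended on the genes of the axis. On an axis without its late markers, the median onset of Cdsn was bin 9 in males and 10 in females and that of Lce3f 9 and 10.5, ahead of Sprr1b at 11 and 12 and of Ivl at 12 and 13.5.

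Onsets of Lor (11 and 12), Crct1 (11.5 and 13), Kprp (10 and 12) and the Lce1 genes, of which Lce1c was at bin 10 in both sexes, do not say that spinous cells made them. Lce1c is not typical of Lce1 in males. Lce1b had its onset at bins 9, 11 and 19 in Male RD mice and at bin 11 in Male HFD 3. Like most Lce1 genes, it had none in Male HFD 1 and Male HFD 2, where it was under 10% of its highest level in bin 20. The summed envelope genes had 2 peaks on the axis: 67192 CPM in bin 12 and 88211 CPM in bin 20 of males, and 31674 CPM in bin 14 and 44783 CPM in bin 20 of females, against 1262 and 444 CPM in bin 1. In male bin 12, 8.02% of cells were of the terminally differentiated class and they held 97.0% of the envelope UMIs. In female bin 14, 5.28% of cells held 96.4%. Krt10, 1 of the genes of this axis, was at 6459 CPM in the Lce1-led cluster of males and 3924 CPM in that of females, against 51314 and 38927 CPM in the Slc6a19-led and Dnase1l3-led clusters. For Sprr1 the same cells held 15.03% and 9.26% of its UMIs in these bins, so its middle levels came mostly from other cells.

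**Figure D2:**
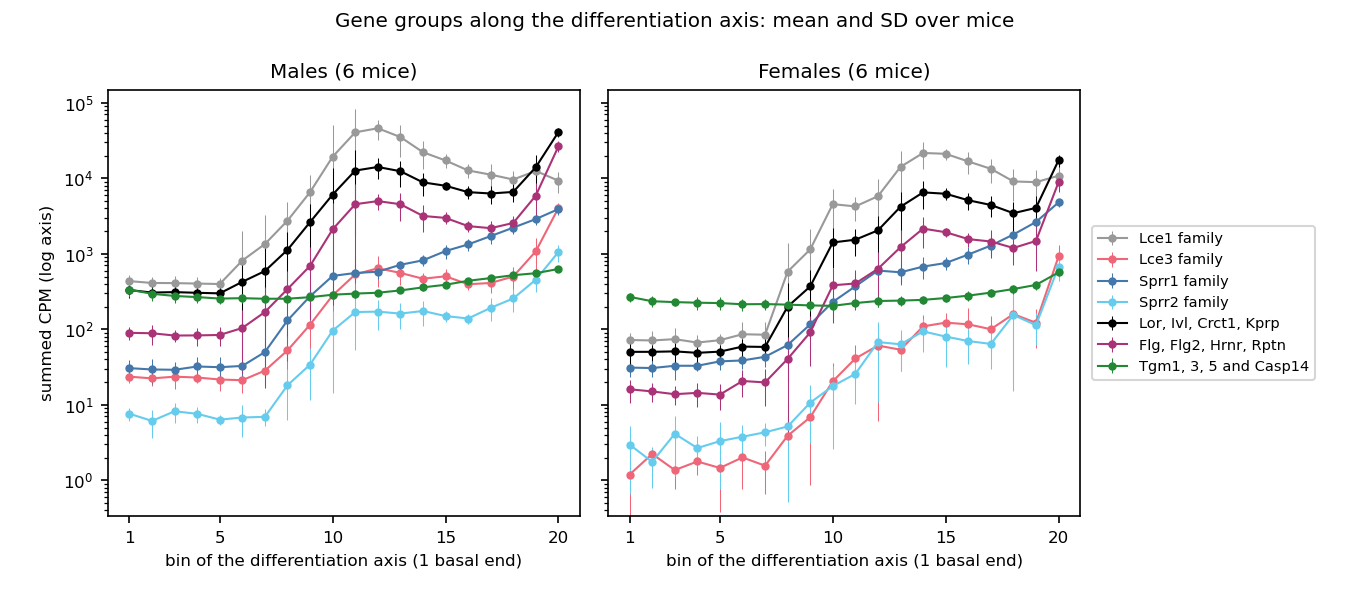
Summed level (CPM, mean and SD over 6 mice of a sex) (log axis) of 7 groups of envelope genes over the 20 bins of the differentiation axis, from the most basal to the most differentiated cells. Lower error bars are cut short where the SD is close to or above the mean. Lce1 and the group of Lor, Ivl, Crct1 and Kprp have a hump at bin 12 in males and 14 in females, Sprr1 is higher from bin to bin after bin 13 without such a hump, and the enzymes lie within a narrow band.

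The genes whose profile over the 20 bins was most like that of the summed envelope genes, by Pearson's r of log2(CPM + 1) as the median over 12 mice, were 2310050C09Rik (0.996), Cpa4 (0.993), Sdcbp2 (0.988), Gm45609 (0.988) and Rnf225 (0.987). Bins share libraries and depth, and these values carry no test.

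The first question on diet was how much of the epidermal RNA these genes took. In males they held 2.13%, 1.92% and 2.10% of all UMIs in the 3 RD mice and 2.82%, 2.75% and 2.50% in the 3 HFD mice. All HFD males were above all RD males, with a ratio of means of 1.31 (exact permutation test, two-sided, p = 0.1, which is the lowest value available to 3 mice against 3). In females the shares were 1.37%, 1.12% and 1.47% in RD and 1.24%, 0.962% and 0.945% in HFD mice. The female groups overlapped, with a ratio of 0.793 (exact permutation test, p = 0.2).

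The share of terminally differentiated cells was also compared. In males it was 7.19%, 6.60% and 6.66% of keratinocytes on RD and 9.58%, 9.40% and 7.68% on HFD (exact permutation test, p = 0.1), with no overlap. In females it was 4.22%, 3.69% and 5.27% on RD and 4.24%, 3.42% and 3.57% on HFD (exact p = 0.3), with overlap. Without doublets the male groups again did not overlap (exact p = 0.1). They overlapped with the finer clustering (exact p = 0.3), the 10% mitochondrial limit and the members kept for clustering (exact p = 0.5 for both), and with the finer clustering the female groups did not (7.09%, 7.064% and 8.37% against 7.060%, 5.29% and 6.34%, exact p = 0.1). The Lce1-led cluster alone made up 2.83%, 2.79% and 2.72% of male keratinocytes on RD and 2.90%, 3.55% and 2.53% on HFD (exact p = 0.7), and 2.21%, 1.85% and 2.85% of female keratinocytes on RD and 2.03%, 1.81% and 1.78% on HFD (exact p = 0.2). Adjusted over the 14 tests of shares made here, no p was below 0.35 (Benjamini-Hochberg). In sums over all keratinocytes, a different number of cells of a type and different RNA per cell cannot be told apart, so both the sums and the class by itself are given next.

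**Figure D3:**
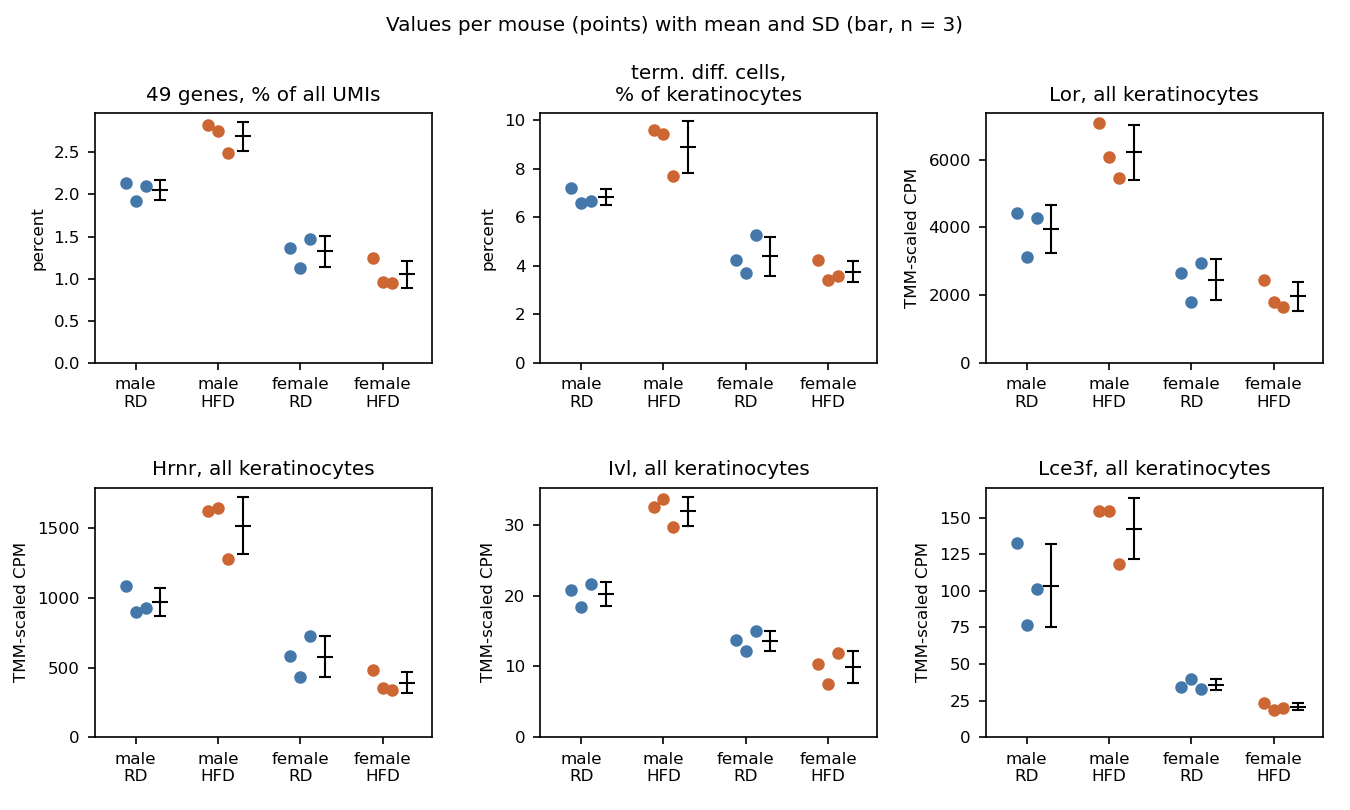
Values of each of the 12 mice by group, with the mean and SD of each group (bar, n = 3): share of all UMIs from envelope genes (%), share of terminally differentiated cells among keratinocytes (%), and the level of Lor, Hrnr, Ivl and Lce3f summed over all keratinocytes (CPM with TMM scaling). HFD males lie above RD males in every panel except that of Lce3f, where they overlap, and HFD females lie below RD females for Ivl and Lce3f.

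Over all keratinocytes of males, the 45 envelope genes that passed the filter on low counts all had a positive log2 fold change for HFD against RD, with a median of 0.50, against a median of -0.01 and 47.2% positive over all 15053 genes tested. No member passed an adjusted p of 0.05 in edgeR's quasi-likelihood test, and neither did any other gene (0% called). Before adjustment, p was under 0.05 for 29 of 45 members and 1369 of all genes. DESeq2 called 21 members and 195 genes. The values of the 3 HFD males were all above those of the 3 RD males for 27 of 45 members, against 7.63% of all genes, and all below for 0 members, against 7.21%. The members share cells and libraries and are not independent of each other. The mitochondrial shares of all barcodes and the share of terminally differentiated cells, given above, moved with the same groups, and the median UMIs per cell nearly did. Their part in the result was not tested.

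Lor, the bulk envelope protein, was at 4415, 3136 and 4283 CPM (TMM-scaled) in RD males and at 7085, 6084 and 5462 CPM in HFD males. The groups did not overlap, and the log2 fold change was 0.65 (SE 0.15, adjusted p = 0.209 in edgeR). Flg, which bundles keratin, was at 2262, 2177 and 1830 against 3583, 2976 and 2930 CPM, a difference of 0.60 (SE 0.12, adjusted p = 0.144). Hrnr, its relative, was at 1087, 901 and 925 against 1629, 1645 and 1283 CPM, a difference of 0.65 (SE 0.12, adjusted p = 0.137). All 3 HFD values lay above all 3 RD values in both genes. The smallest adjusted p of any member was that of Ivl, 0.102, with 20.9, 18.4 and 21.6 CPM on RD and 32.5, 33.6 and 29.7 CPM on HFD (log2 fold change 0.65, SE 0.08). Flg2 was at 33.1, 39.9 and 32.7 against 64.9, 45.7 and 64.9 CPM (0.73, SE 0.14, adjusted p = 0.141).

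By family, the median male log2 fold change was 0.54 for 14 Lce1 genes, 0.36 for 6 Lce3 genes, 0.34 for 8 Sprr2 genes, 0.37 for 2 Sprr1 genes, 0.62 for the 4 filaggrin relatives, 0.59 for Lor, Ivl, Crct1 and Kprp, and 0.37 for the 4 enzymes. Tgm3, the gene already on in basal cells, was lowest at 0.04. Sprr2a3 was highest at 2.18 but was below 1 CPM in 5 of 6 males, and in Male HFD 1 a single cell held 48.5% of its 264 UMIs.

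Within the male terminally differentiated class, 35 of 45 members had a positive log2 fold change and the median was 0.11. These values depended on how the class was drawn: with doublets removed 12 of 44 were positive (median -0.08), with the members kept for clustering 40 of 44 (0.36), with the 10% mitochondrial limit 40 of 44 (0.32) and with the finer clustering 39 of 45 (0.27). Without Male RD 2, 25 of 45 were positive (0.02). None was called in edgeR, against 4 of 10618 genes (0.0377%), or 0.0283% higher and 0.00942% lower. Before adjustment, p was under 0.05 for 4 members and 2182 genes. It was so for 30 of 44 members with the members kept for clustering, 25 of 44 with the 10% limit and 21 of 45 with the finer clustering. For these settings no such count over all genes was taken, so the member counts have no share to be set against. There edgeR called 0 members and 3, 6 and 2 genes. DESeq2 called 2 members and 199 genes. The HFD mice were all above the RD mice for 4 members (Hrnr, Ivl, Sprr2a3 and Tgm1), against 11.9% of all genes, and all below for 0, against 13.3%. Tgm1 was at 186, 138 and 176 CPM on RD and 215, 224 and 240 CPM on HFD (0.44, SE 0.12, adjusted p = 0.1145). Ivl was at 89.4, 72.2 and 118 against 136, 126 and 146 CPM (0.55, SE 0.15, adjusted p = 0.121). For Lor the difference was 0.23 (SE 0.16, adjusted p = 0.426). The medians of Lce1 (0.11) and Lce3 (-0.05) were near 0.

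In male suprabasal cells 0 of 43 members were called, as were 0 of 13123 genes (0%), while p before adjustment was under 0.05 for 4 members and 1020 genes. DESeq2 called 0 members and 54 genes. HFD mice were all above RD mice for Casp14 and Lor only, 2 of 43 members against 7% of genes, and all below for 0, against 7.28%. Casp14 was at 55.8, 54.0 and 54.4 CPM on RD and 66.4, 57.6 and 66.8 CPM on HFD (0.22, adjusted p = 0.561 in edgeR). Lor, no higher here than in Langerhans cells, was at 269, 247 and 231 against 279, 335 and 338 CPM (0.35, adjusted p = 0.534).

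Over all keratinocytes of females the direction was the reverse. Of 46 members, 45 had a negative log2 fold change and the median was -0.46, against 0.01 over all 17708 genes. In edgeR, 8 members fell on HFD, against 1.9% of genes called lower (3.38% in either direction), and 0 rose. Before adjustment, p was under 0.05 for 32 of 46 members and 3852 of all genes. DESeq2 called 24 members and 1480 genes. The HFD values were all below the RD values for 18 of 46 members, against 14.8% of genes, and all above for 0, against 12.8%. The 8 were Lce3b, Lce3d, Lce3e, Lce3f, Lce1k, Sprr2b, Sprr2d and Sprr2i, so that they came from the Lce3, Sprr2 and Lce1 families alone. With doublets removed 5 members and 592 genes were called. Of these members 4 were among the 8 (not Lce3b, Lce3e, Sprr2d or Sprr2i). Without Female HFD 1, 11 members and 540 genes were called, with 5 of the members among these 8. Without Female HFD 2 there were 4 members, all among the 8, and 906 genes. Without Female RD 3 there were 2 members, of which only Lce3b was among the 8, and 6 genes. There were 0 members without Female HFD 3 (6 genes), Female RD 1 (2 genes) or Female RD 2 (2 genes).

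Lce3f, a late envelope gene of the middle step, was at 34.5, 39.9 and 32.7 CPM on RD and 23.5, 18.8 and 19.9 CPM on HFD, a log2 fold change of -0.78 (SE 0.10, adjusted p = 0.0199 in edgeR). Lce3d was at 17.7, 26.7 and 19.0 against 10.8, 8.99 and 7.26 CPM (-1.22, SE 0.18, adjusted p = 0.0221). Sprr2b was at 41.0, 48.1 and 31.7 against 25.2, 20.9 and 25.5 CPM (-0.75, SE 0.14, adjusted p = 0.0337). Lce1k, the lowest of the Lce1 genes, was at 91.1, 81.4 and 89.3 against 70.7, 55.9 and 67.4 CPM (-0.43, SE 0.09, adjusted p = 0.0437). In all 4 genes the 2 groups did not overlap. These 4 were called also after the cells with the most Lce3a, Lce3b, Sprr2e, Sprr2f or Sprr2i UMIs of each mouse had been left out.

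The other 4 were no longer called then. Lce3e was at 11.2, 19.98 and 13.9 CPM on RD and 8.97, 4.95 and 4.78 CPM on HFD (-1.26, SE 0.27, adjusted p = 0.0463). Sprr2d was at 27.6, 37.3 and 19.9 against 17.1, 9.94 and 10.6 CPM (-1.17, SE 0.25, adjusted p = 0.0467). Sprr2i was at 8.57, 14.3 and 3.14 against 2.42, 2.04 and 1.08 CPM (-2.22, SE 0.49, adjusted p = 0.0490). Lce3b was at 3.73, 2.36 and 0.110 against 0.0647, 0.0077 and 0.041 CPM (-5.68, SE 1.19, adjusted p = 0.0431). A single terminally differentiated cell of Female RD 1 held 96.6% of the Lce3b UMIs of that mouse's keratinocytes and 44.6% of its Sprr2i UMIs, along with 91.3% of Lce3a, 94.7% of Sprr2f and 82.2% of Sprr2e. In Female RD 2 a single cell held 61.5% of the Lce3b UMIs.

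Lor, the member with the highest level in terminally differentiated cells, was not called in females, and neither were Ivl, Hrnr and Cdsn. Lor was at 2645, 1795 and 2940 CPM on RD and 2432, 1790 and 1656 CPM on HFD, with overlapping groups (-0.33, SE 0.20, adjusted p = 0.37 in edgeR). Ivl gave -0.46 (adjusted p = 0.136), Hrnr -0.56 (adjusted p = 0.138) and Cdsn -0.56 (adjusted p = 0.0655). The family medians were -1.24 for Lce3, -0.75 for Sprr2, -0.42 for Lce1, -0.64 for the filaggrin relatives, -0.41 for Lor, Ivl, Crct1 and Kprp, -0.36 for the enzymes and -0.13 for Sprr1. Sprr4, which lay under 1 CPM in every female, was the single gene with a positive value (0.28, SE 0.89).

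Within the female terminally differentiated class 0 of 44 members were called, as were 0 of 10355 genes (0%), while p before adjustment was under 0.05 for 17 members and 1272 genes. DESeq2 called 7 members and 51 genes. The log2 fold change was negative for 43 of 44 members, with a median of -0.28. The HFD values were all below the RD values for 11 members, against 8.33% of genes, and all above for 0, against 9%. These 11 were Lce1c, 5 of the Lce3 genes (Lce3b to Lce3f), Sprr2d, Sprr2i, Sprr2j-ps, Sprr2k and Tgm5. The family medians were -1.05 for Lce3, -1.10 for Sprr2 and -0.18 for Lce1.

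Lce3e was at 202, 352 and 199 CPM on RD and 142, 122 and 89.3 CPM on HFD in these cells (-1.09, SE 0.23, adjusted p = 0.183 in edgeR). Lce3d was at 313, 470 and 270 against 173, 215 and 134 CPM (-1.01, SE 0.22, adjusted p = 0.184), and Lce3f at 602, 691 and 469 against 373, 455 and 362 CPM (-0.57, SE 0.16, adjusted p = 0.2797). Sprr2i was at 114, 203 and 29.3 against 14.3, 11.5 and 9.68 CPM (-3.26, SE 0.56, adjusted p = 0.148), with the single cell named above in the first value. Tgm5 gave -0.49 (adjusted p = 0.287). In all 5 the HFD values lay below the RD values.

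In female suprabasal cells 0 of 40 members were called, against 4.17% of 13424 genes (2.26% higher and 1.91% lower), while p before adjustment was under 0.05 for 6 members and 2922 genes. DESeq2 called 3 members and 714 genes. HFD mice were all below RD mice for Lce1m and all above for Sprr2j-ps, against 14% and 13.7% of genes. The Lce1 genes summed were no higher here than in Langerhans cells. Casp14 was at 52.9, 57.6 and 47.4 CPM on RD and 47.7, 38.6 and 40.1 CPM on HFD (-0.32, SE 0.09, adjusted p = 0.0830).

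**Figure D4:**
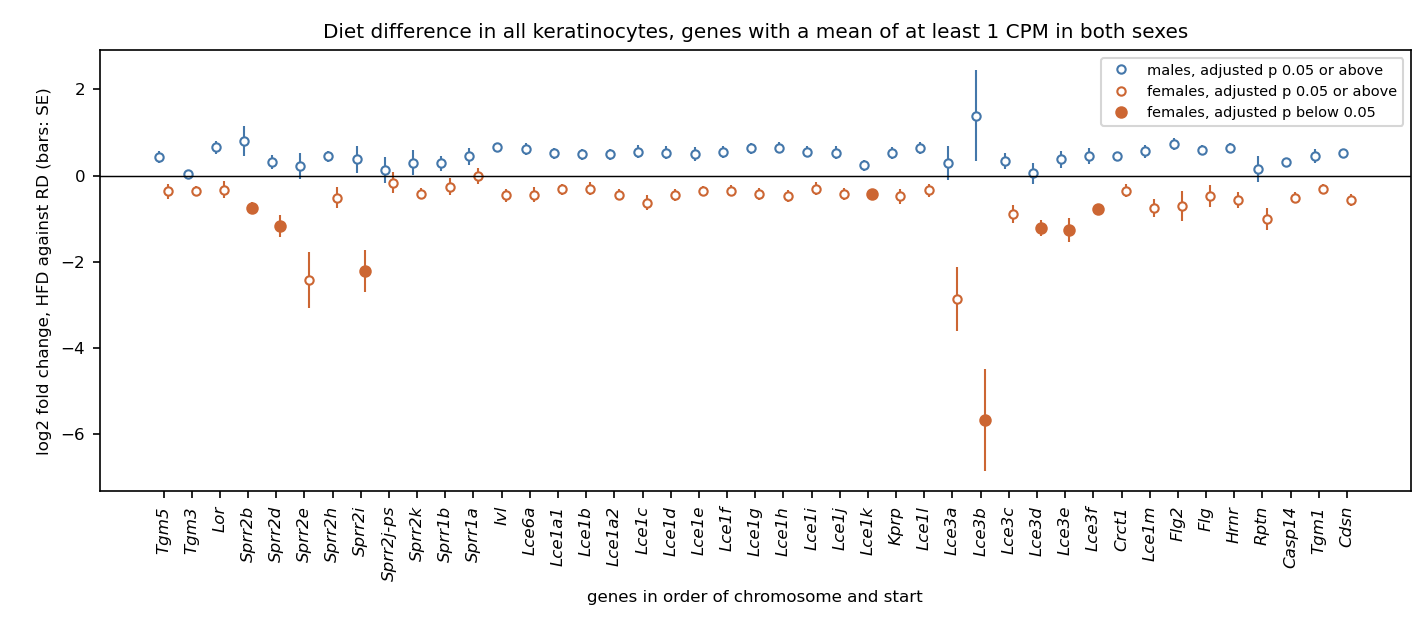
Log2 fold change of HFD against RD over all keratinocytes (vertical axis, points with SE) for 43 envelope genes in order of chromosome and start, from edgeR. Males and females have a colour each, and filled points passed an adjusted p of 0.05. Male values lie above 0 and female values below 0 for every gene drawn, and Lce3b, Lce3a, Sprr2e and Sprr2i are farthest from 0 in females.

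An interaction term in 1 fit over 12 mice, males minus females, tested the difference of the diet effects between the sexes. Over all keratinocytes, a comparison added after the data were seen, the difference was positive for 46 of 46 members, with a median of 1.01 against -0.04 over all 17986 genes. It was called in edgeR for 12 members, against 0.945% of genes called in that direction (0.567% in the other, 1.51% in either). These were Ivl (1.10, SE 0.19, adjusted p = 0.0193), Cdsn (1.06, adjusted p = 0.0225), Hrnr (1.19, adjusted p = 0.0377), Casp14 (0.81, adjusted p = 0.0381), Lce3e, Lce3f, Sprr2d and 5 Lce1 genes (Lce1a2, Lce1c, Lce1g, Lce1h and Lce1m). Lor gave 0.97 and was not called (adjusted p = 0.0844). Leaving out 1 mouse gave 0 members without Female RD 1 (23 genes called), Male HFD 1 (22), Male HFD 2 (26) or Male RD 3 (19). There were 2 members without Female RD 3 (27 genes) or Female HFD 2 (127), 1 without Female HFD 3 (38), and up to 28 without Female HFD 1 (394).

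Within the terminally differentiated class the interaction was positive for 45 of 45 members (median 0.55, against 0.02 over 11491 genes) and was called for Sprr2i alone (3.33, SE 0.74, adjusted p = 0.0433 in edgeR), against 0.757% of genes in that direction and 0.748% in the other. It was not called without the single cells of highest counts, nor under most other settings.

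A list of other genes of cornification was read in the same fits. Over all keratinocytes of females 2 of 40 tested fell: Crnn, cornulin, also of the complex on chromosome 3 (-0.91, adjusted p = 0.0316 in edgeR), and Dsc1, a desmosomal cadherin (-0.59, adjusted p = 0.0342), against 1.9% of all genes called lower. The median was -0.23 and 3 of 40 were positive. In males 0 of 38 were called, 34 of 38 were positive and the median was 0.23. Among 29 transcription factors and regulators of differentiation, 2 fell in females, against the same 1.9%: Grhl1 (-0.41, adjusted p = 0.0364) and Nfe2l2 (-0.35, adjusted p = 0.0299). In males 0 of 29 were called. In female suprabasal cells 1 of 35 cornification genes fell, Dsc1 (-0.39, adjusted p = 0.0125 in edgeR), and 3 of 29 regulators, Grhl1 (-0.27, adjusted p = 0.0347), Nfe2l2 (-0.44, adjusted p = 0.0114) and Zfp750 (-0.25, adjusted p = 0.0475), against 1.91% of all genes lower.

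None of 9 stress genes or 13 mitochondrial genes was called over all keratinocytes in either sex. In females 1 of 9 stress genes was positive over all keratinocytes (median -0.50) and 1 of 9 in the terminally differentiated class (median -1.02), and 12 of 13 mitochondrial genes were positive over all keratinocytes (median 0.08) and 12 of 13 in the terminally differentiated class (median 0.16). In males 3 of 9 stress genes (median -0.02) and 9 of 13 mitochondrial genes (median 0.11) were positive over all keratinocytes, and 6 of 9 (0.05) and 10 of 13 (0.04) in the terminally differentiated class. Their part in the results was not tested.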

How the data were processed

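Single-cell 3′ RNA-seq counts were deposited per library as raw UMI counts per gene and barcode, made by the authors with Cell Ranger (per the file headers, version 6.1.0 for males and 7.2.0 for females, on mm10). The submitters' processing notes name Cell Ranger 7.2.0 and Seurat 5.0.0. Whether introns were counted is not given in the sources used here. Coordinates are GRCm38, and promoter sequences are from RefSeq (GRCm38.p6).

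Cells were kept from 200 (males) or 500 (females) to 6000 genes and up to 5% mitochondrial UMIs, and no doublets were removed in the values reported (an alternative removed 5.90% to 13.0% of cells per mouse). Clustering was by sex, with the 49 genes left out (10 principal components, 20 neighbours, 2000 variable genes, Leiden at the lowest resolution giving at least 10 clusters, 0.2 in males and 0.3 in females). Clusters were named from at least 3 markers, so class names are rebuilt ones and stand for "-like" cells. All keratinocytes means basal, proliferating, suprabasal, terminally differentiated, migratory and unnamed cells.

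Counts were summed per mouse and class, filtered with filterByExpr, scaled by TMM and tested with edgeR 4.0.16's quasi-likelihood test (R 4.3.3, limma 3.58.1) with Benjamini-Hochberg adjustment over all genes, threshold 0.05. DESeq2 1.42.0 was an alternative. Python 3.11.15, numpy 2.4.6, scipy 1.17.1, scikit-learn 1.9.0, igraph 0.11.9 and leidenalg 0.10.2 were used. The fits were tested on simulated data: for the terminally differentiated class, 2-fold changes were recovered in 77% (males, 10618 genes), 68% (females, 10355 genes) and 35% (interaction, 11491 genes) of changed genes and 4-fold changes in 95%, 89% and 79%. Exact permutation tests compared single values of 3 mice against 3. Each library was 1 mouse, and p-values cover the spread between these mice. Intervals were not used.

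Genes were named by rule: the 13 members outside the Lce and Sprr families, the 3 highest members of each family in terminally differentiated cells, each member past the threshold in a diet comparison, up to 6 such genes with the largest change per other list, the 5 genes most alike in profile, and Xist and Ddx3y. Members named beyond it were chosen after their values were seen. The members, lists and comparisons were chosen with earlier results of these data known.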

Additional observations from a re-analysis of the deposited data

Results flagged for a closer look

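The diet effect (HFD against RD, log2) differed between males and females by the test of the difference itself in edgeR's quasi-likelihood fit for the following members, each value being the male minus the female effect. Over all keratinocytes, a comparison added after the data were seen, these were the precursor Ivl (1.10), the adhesion protein Cdsn (1.06), the S100-fused protein Hrnr (1.19) and the protease Casp14 (0.81). The Lce1 genes were Lce1h (1.11), Lce1g (1.03), Lce1c (1.17), Lce1a2 (0.92) and Lce1m (1.30). The Lce3 and Sprr2 genes were Lce3f (1.23), Lce3e (1.62) and Sprr2d (1.46). Within the terminally differentiated class it was Sprr2i (3.33). None of the 12 over all keratinocytes was called without Male RD 3, Male HFD 1, Male HFD 2, Female RD 1 or Female RD 3. Sprr2i was not called without doublets, without the highest cells or with the replicate block. Males and females also differ in the version of the counting software, and in the clustering used the HFD and RD males did not overlap in their share of terminally differentiated cells (exact permutation p = 0.1), and without doublets they did not overlap either (exact p = 0.1), although they overlapped with the finer clustering, the 10% mitochondrial limit and the members kept (exact p = 0.3, 0.5 and 0.5). Their part in these differences was not tested.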

How the results depend on the processing

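Over all keratinocytes of females, 8 members were called. DESeq2 called 24, no filter on low counts gave 15, removal of doublets 5, removal of the highest cells 4, the replicate block 0, and leaving out 1 mouse 0 to 11. Called genes of all kinds were 598 in the main fit, 1480 with DESeq2, 643 with no filter, 592 without doublets and 588 without the highest cells. They were 5 with the block and 2 to 906 without 1 mouse. In males, DESeq2 called 21 members and 195 genes, no filter gave 10 and 87, the block gave 1 gene, and leaving out 1 mouse gave 0 members and 0 to 1 genes.

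In terminally differentiated cells of females, DESeq2 called 7 members and 51 genes, no filter 15 and 326, the wider mitochondrial limit of 10% 14 genes, the finer clustering 1, the top 5% of the axis 8, removal of doublets 2, and leaving out 1 mouse 0 to 5 members and 0 to 45 genes. In males, DESeq2 called 2 members and 199 genes, no filter 5 and 846, the finer clustering 2 genes, the block 0, the top 5% of the axis 1, and leaving out 1 mouse 0 to 2 members and 1 to 73 genes.

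In suprabasal cells of females, DESeq2 called 3 members and 714 genes, no filter 6 members and 1190 genes, and the block 1 member and 254 genes. The finer clustering gave 258 genes, the 10% limit 196, and leaving out 1 mouse 0 to 1 members and 9 to 970 genes. In males, DESeq2 called 54 genes, no filter 44, removal of doublets 1, clustering with the members 1, the block 1, and leaving out 1 mouse 0 members and 0 genes.

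For the interaction over all keratinocytes, DESeq2 called 30 members and 987 genes, no filter 29 and 390, and the 10% limit 5 and 115. The block gave 11 members and 177 genes, and leaving out 1 mouse 0 to 28 members and 19 to 525 genes. In terminally differentiated cells, DESeq2 called 7 members and 594 genes, the 10% limit 2 and 83, no filter 22 and 1031, and the finer clustering 0 and 52. The block gave 0 members and 1 gene, clustering with the members 0 and 5, and removal of doublets 0 and 3. Removal of the highest cells gave 0 members and 144 genes, and the top 5% of the axis 0 and 187. Leaving out 1 mouse gave 0 to 3 members and 0 to 804 genes. The cause of these changes was not tested.

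Correlations of deviations between RD and HFD mice of the same replicate number were -0.219 to 0.123. Whether such mice shared a batch was not tested, and neither was the reason for the calls lost under the block.

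Sprr4 over all keratinocytes of females changed sign from 0.28 to -0.24 without Female RD 2, -0.14 without Female RD 3 and -0.46 without Female HFD 1, and leaving out 1 mouse gave -0.46 to 2.32. Lce3b in males changed sign from 1.39 to -1.02 without Male HFD 3, -0.90 with doublets removed and -1.12 with the highest cells removed. In the settings that kept the filter, 41 to 46 of the 45 or 46 members tested in males were positive, and 0 to 3 of 44 to 47 in females.

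The median onset was bin 9 on an axis without its late genes, 19 with 25% as the threshold and 14 without doublets in males, and 11.5 and 18 under the first 2 of these in females. On the axis without its late genes, only 27 of the 30 male genes and 26 of the 40 female genes had an onset. Those medians are therefore over fewer genes than in the main setting. The envelope share of UMIs in terminally differentiated cells was 9.88%, 8.90% and 7.27% in males with the finer clustering, the 10% limit and clustering with the members, and 11.4%, 7.74% and 16.4% in females. The difference in the share of these cells was 1.55 to 2.52 percentage points in males (1.72 to 2.68 leaving out 1 mouse) and -0.646 in females (-0.999 to -0.206 leaving out 1 mouse), where it was -1.28 with the finer clustering, -1.68 with the 10% limit, -0.977 with the members kept and -0.712 without doublets. With 3 mice per group, the tests recovered 4-fold changes more often than 2-fold ones.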

Other observations

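Some envelope genes also had UMIs in the migratory class, which was left out of the differentiation axis. The migratory class carries markers of hair follicle and duct-like cells such as Krt79 and Defb6. Sprr1a was there at 532 CPM in males and 585 CPM in females, against 48.7 and 10.1 CPM in basal cells. In Langerhans cells, taken here as the background, it was at 69.4 and 39.1 CPM. In migratory cells Cdsn was at 158 and 83.5 CPM, Rptn at 73.6 and 35.9 CPM and Crct1 at 651 and 371 CPM. Langerhans cells held 9.01 and 3.12 CPM of Cdsn, 1.90 and 0.631 CPM of Rptn, and 188 and 34.7 CPM of Crct1. A Crct1 UMI was found in 55.6% of male and 11.3% of female migratory cells, against 48.03% and 7.56% of Langerhans cells, at median depths of 7206 and 7515 against 4660 and 6724 UMIs. Sprr4, absent from almost all other classes, was at 15.002 and 5.30 CPM in migratory cells. In females the finer clustering split this class, and Crct1 was at 820 CPM in the Defb6-led and 12.7 CPM in the Ccn2-led cluster, with Sprr1a at 873 and 333 CPM.

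In males a basal cluster led by Dynap (1642 cells) held 455 CPM of Sprr1a, against 8.11 CPM in the largest basal cluster (11980 cells). These are descriptions of clusters, with no test.

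The interaction, males minus females, was also read for genes outside the 49. Over all keratinocytes, a comparison added after the data were seen, it was called higher in edgeR for 4 of 40 cornification genes and 1 of 29 regulators, against 0.945% of all genes: Crnn (1.54, adjusted p = 0.0119), Alox12b (0.85, adjusted p = 0.0304), Aloxe3 (0.69, adjusted p = 0.0305) and Spink5 (0.68, adjusted p = 0.0351), a protease inhibitor of the upper epidermis, and Grhl1 (0.62). Leaving out 1 mouse moved the 272 genes called there to between 19 (without Male RD 3) and 525 (without Male RD 2). Within the terminally differentiated class it was called higher for 1 of 37 cornification genes, Dsp (0.70, adjusted p = 0.0459), 1 of 9 stress genes, Stfa2 (3.31, adjusted p = 0.0348), and 4 of 29 regulators, among them Grhl1 (0.68), Klf4 (0.84) and Zfp750 (0.73), against 0.757% of all genes. The number of genes called in the class was 173, but 1 with the replicate block, 3 without doublets, and 0 without Male HFD 1, Female RD 1, Female HFD 1 or Female HFD 3.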
